A study of Homo sapiens with 8 samples.

Results

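The FASTK family of mitochondrial RNA regulators was followed in HAP1 cells with and without BCDIN3D. Its 6 measured members are FASTK, FASTKD1, FASTKD2, FASTKD3, FASTKD5 and TBRG4, also called FASTKD4, out of 57996 gene symbols in the RNA-seq files. The family was chosen by the counts of FASTKD2, which were close to 0 in the knockout clone, so its difference between the groups is described here without a test. The other 5 genes entered by homology to it. All 6 passed the filter on low counts that left 16233 genes to be tested. FASTKD2 would have been kept through its wild-type libraries alone.

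HAP1 is a near-haploid, adherent human line derived from chronic myelogenous leukaemia cells. BCDIN3D encodes a methyltransferase for the 5′ end of a histidine tRNA. Wild-type cells were compared with a single knockout clone, clone 11. Both were grown for 48 h in IMDM with 10% fetal bovine serum, and the RNA had an integrity number of 10. Each group had 2 RNA-seq libraries, 1 from each of 2 dates in the labels (replicates 1 and 2), and 2 small RNA libraries from the same RNA. As the knockout was 1 clone, effects of the lost gene and differences between clones cannot be told apart. The labels call the libraries biological replicates without naming separate cultures, so the p-values reflect only how far these libraries scatter, and that scatter may be technical.

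FASTK proteins are encoded in the nucleus, and most of their known work is in mitochondria, where they share a C-terminal RAP domain and bind RNA. Mitochondrial DNA is transcribed into long precursors that are cut at the tRNAs and processed further into rRNAs and mRNAs. The family members act on the maturation or stability of different sets of these transcripts. FASTKD2 sits in mitochondrial RNA granules, binds the large mitochondrial rRNA (MT-RNR2) and MT-ND6, and is needed for assembly of the mitochondrial ribosome. Recessive loss of FASTKD2 causes an encephalomyopathy with low cytochrome c oxidase activity.

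RNA-seq depth was 20065041 to 24415272 counts per library. BCDIN3D itself stood at 7.40 and 4.90 CPM (counts scaled to the TMM-adjusted library size) in wild-type and at 1.56 and 2.71 CPM in knockout libraries, so it was lower but still counted in the clone (log2 fold change -1.52 ± 0.24, SE, edgeR adjusted p = 2.06e-05). Of 13 blood cell markers, 10 had under 10 counts in every library and HBG1 had 0 in all, while KIT (-3.30 ± 0.23, called lower), TAL1 (0.32 ± 0.08, called higher, but not without wild-type replicate 1) and RUNX1 (-0.24 ± 0.22) were counted. The summed level of the 13 was 60.7 and 66.3 CPM in wild-type against 64.2 and 64.8 CPM in knockout. Of 8 adherent-cell and mesenchymal genes, with summed levels of 804 to 905 CPM, 6 were tested. VIM (0.28) and SPARC (0.32) were called higher, though not without wild-type replicate 2, and LAMB1 (-0.57) lower. Of the 3 blood cell markers tested 66.7% were called, and of the 6 adherent-cell and mesenchymal genes 50%, against 6.56% of all genes tested. The part of these marker differences in the results was not tested.

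FASTKD2 lies on chromosome 2 (chr2:206765606-206796189, plus strand, GRCh38.p14) and faces MDH1B, whose annotated start is 278 bases away on the other strand. Shown are the start region from which FASTKD2 would be transcribed and that of the family member FASTK. A microRNA whose hairpins lie within the span of FASTKD2 follows. The counts do not measure start regions, and the part of these sequences in the FASTKD2 difference was not tested. Sequences are from RefSeq (GRCh38.p14), and 5 of the 6 members had a start region in the table. FASTKD5 was the one without. In the 250 bases before each start, capitals mark CG dinucleotides.
FASTKD2, chr2:206765356-206765605, plus strand: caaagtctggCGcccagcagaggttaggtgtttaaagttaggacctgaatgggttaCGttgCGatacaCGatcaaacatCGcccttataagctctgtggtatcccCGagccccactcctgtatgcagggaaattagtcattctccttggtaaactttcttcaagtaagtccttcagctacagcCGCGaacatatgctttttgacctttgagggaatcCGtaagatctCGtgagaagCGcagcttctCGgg
FASTK, chr7:151080810-151081059, minus strand: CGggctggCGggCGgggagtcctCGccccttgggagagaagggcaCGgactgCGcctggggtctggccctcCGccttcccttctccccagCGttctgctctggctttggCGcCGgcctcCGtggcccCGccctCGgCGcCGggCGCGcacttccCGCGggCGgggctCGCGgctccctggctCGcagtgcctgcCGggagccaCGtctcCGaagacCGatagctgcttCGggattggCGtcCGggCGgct
The FASTKD2 window held 12 CG dinucleotides and that of FASTK 31. Of 35116 windows of the same length, 51.5% had fewer than FASTKD2 and 89.1% fewer than FASTK. The FASTKD1 window held 13, and those of FASTKD3 and TBRG4 held 27 each. Motifs were searched on both strands as exact letters. GCGCATGCG (in 1.64% of all windows) and AAGATGGCG (0.652%) were in 0 of the 5 windows. CCGGAAG (8.52%) was in that of TBRG4 alone, and CCAAT (32.0%) in those of FASTK and FASTKD3. These are matches of letters in 250 bases and describe no binding.

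The hairpins of miR-3130 lie within the span of FASTKD2, as MIR3130-2 on its own strand and MIR3130-1 on the opposite strand of the same bases (chr2:206783234-206783308). Both arms are shown because both names were counted. Capitals mark the seed (bases 2 to 8).
miR-3130-5p: uACCCAGUcuccggugcagcc
miR-3130-3p: gCUGCACCggagacuggguaa
The arm of one hairpin overlaps the opposite arm of the other (3p of MIR3130-1 at 206783245 to 206783265, 5p of MIR3130-2 at 206783246 to 206783266), and the 2 names had equal counts in every library. They cannot be told apart and are treated as 1 measurement.

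FASTKD2 was the member that set the knockout clone apart. It had 317 and 513 counts in the wild-type libraries and 1 and 3 counts in the knockout libraries. On the CPM scale it stood at 15.2 and 20.8 in wild-type and at 0.0473 and 0.151 in knockout. The groups did not overlap, and both knockout libraries were low, which is what the gene was chosen for. Over each group 830 counts stood against 4, which is 187-fold fewer after scaling to library size (exact 95% interval 72.8 to 688, counting error only). The fitted log2 fold change was -7.45, and it was -6.85 without knockout replicate 1 and -8.42 without knockout replicate 2, so its size depends on which library of 1 or 3 counts is used. FASTKD2 made up 3.41% (Clopper-Pearson 95% interval 3.05 to 3.79) and 4.73% (4.34 to 5.15) of the family's counts in the wild-type libraries. In the knockout libraries it made up 0.0113% (0.000286 to 0.0630) and 0.0351% (0.00724 to 0.103). The reads carried no molecular identifiers, so these intervals cover counting error only. As FASTKD2 was chosen by these counts, the intervals describe their size and lend no support to a difference. In bulk RNA, fewer cells with a transcript and less of it per cell cannot be told apart.

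**Figure D1:**
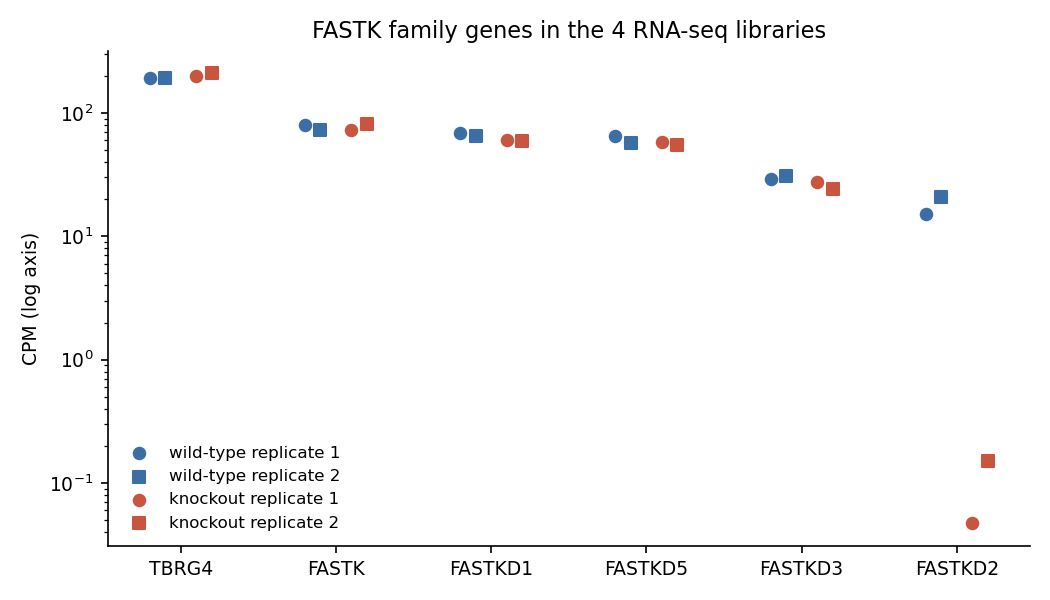
CPM of the 6 family genes in each RNA-seq library, on a log axis. Circles are replicate 1 and squares replicate 2, blue wild-type and red knockout. The points of FASTKD2 fall from 15.2 and 20.8 CPM in wild-type to 0.0473 and 0.151 CPM in knockout, and those of the other genes stay close together. Levels of different genes are not comparable here because gene lengths differ.

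The microRNA within the span of FASTKD2 gave few counts. miR-3130 had 10 and 8 counts in the wild-type small RNA libraries against 3 and 0 in the knockout libraries, whose totals were 236073 and 266466 against 157706 and 346626. Both knockout libraries were below both wild-type libraries. Over each group 18 counts stood against 3, a ratio of 6.02 after scaling to library totals (exact 95% interval 1.76 to 31.9, counting error only). All 3 knockout counts came from replicate 1, and without knockout replicate 2 the ratio was 1.88 (0.55 to 9.98), a difference within counting error. For the library at 0, up to 3 counts, or 8.65 when scaled to its total as CPM, are possible. The name did not pass the filter on low counts, so there was no test across microRNAs. The strand of the hairpin that gave these reads is unknown.

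The 5 relatives gave 0 calls in either direction by edgeR at an adjusted p under 0.05, where 6.56% of all genes tested were called (3.06% higher and 3.50% lower). DESeq2 (3.61% of all genes) and the fit that blocks on the date (9.55%) also called 0. FASTKD1 and FASTKD3 were the 2 with an unadjusted p under 0.05, as had 2711 of all 16233 genes tested. The median log2 fold change of the 5 was -0.10, against 0.0017 over all genes tested.

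FASTKD1, which acts on the level of MT-ND3, stood at 68.8 and 64.7 CPM in wild-type and 60.3 and 58.9 CPM in knockout (chr2:169528508-169573865). Both knockout libraries were below both wild-type libraries. Groups failed to overlap in 3 of the 5 relatives, and in 45.3% of all genes tested. Its log2 fold change was -0.16 ± 0.08 (SE, 95% interval -0.32 to -0.01 before adjustment, adjusted p = 0.272). FASTKD3, which is needed for normal respiration, stood at 29.0 and 30.7 CPM in wild-type and 27.6 and 24.3 CPM in knockout (chr5:7859159-7869031). Its groups did not overlap either, with a log2 fold change of -0.20 ± 0.10 (95% interval -0.40 to -0.0025 before adjustment, adjusted p = 0.290). MTRR, a methionine synthase reductase gene, spans the whole of FASTKD3. The strand setting of the counting is not given in the sources used here, so reads of the 2 genes may not be fully separated, and MTRR itself gave 0.05 ± 0.08.

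FASTK, the founding member, matures MT-ND6 mRNA through its mitochondrial form. It stood at 79.4 and 73.0 CPM in wild-type and 72.1 and 81.1 CPM in knockout (chr7:151076624-151080809). The groups overlapped fully, and the log2 fold change was 0.01 ± 0.08 with a 95% interval of -0.15 to 0.16. FASTKD5, which processes precursors at ends that no tRNA marks, stood at 64.5 and 57.0 CPM in wild-type and 58.0 and 55.3 CPM in knockout (chr20:3146519-3159865). These groups overlapped as well (-0.10 ± 0.08, interval -0.26 to 0.06). FASTKD5 lies within the span of UBOX5, so reads from shared bases may be dropped or assigned to either gene.

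TBRG4, which stabilises several mitochondrial mRNAs, stood at 190.5 and 192.9 CPM in wild-type and 200 and 209.8 CPM in knockout (chr7:45100100-45111697). Both knockout libraries lay above both wild-type libraries, the reverse of FASTKD1 and FASTKD3. The difference was small (0.10 ± 0.06, interval -0.03 to 0.22, adjusted p = 0.473). TBRG4 also spans small nucleolar RNAs, of which SNORA5C gave 0.03 ± 0.16 and SNORA5A -0.17 ± 0.28. The intervals of all 5 relatives lay between -0.40 and 0.22, so changes of 2-fold were outside each of them. A missed threshold does not show that smaller changes were absent.

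The mitochondrially encoded transcripts are the substrates of the family. All MT genes together took 0.182% (Clopper-Pearson 95% interval 0.180 to 0.184) and 0.186% (0.184 to 0.187) of counts in the wild-type libraries. They took 0.167% (0.165 to 0.168) and 0.175% (0.173 to 0.177) in the knockout libraries. Both knockout libraries were lower, by 0.0129 percentage points on average, but an exact two-sided permutation test of 2 against 2 libraries gave p = 0.333, the smallest it can give. Of the 13 mRNAs and 2 rRNAs, 0 were called higher and 1 lower (6.67%, against 6.56% of all genes). The median log2 fold change of the 15 was -0.01.

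Per kilobase, MT-CO3 was the most abundant of the 15 in every library, followed by MT-CO1 and MT-CO2, whose order differed between libraries. MT-CO3, which encodes a core subunit of cytochrome c oxidase, went from 746 and 785 to 647 and 693 CPM per kb. Its groups did not overlap, and it was called lower (-0.19 ± 0.06, edgeR adjusted p = 0.0247). The call was lost with DESeq2 (adjusted p = 0.0608) and when wild-type replicate 1 (adjusted p = 0.107), wild-type replicate 2 (0.469) or knockout replicate 1 (0.136) was left out. MT-CO1, which encodes the catalytic subunit of the same enzyme, stood at 286 and 311 in wild-type and 232 and 280 CPM per kb in knockout. It missed the threshold by edgeR (-0.22 ± 0.07, adjusted p = 0.0780) and by DESeq2 (adjusted p = 0.757). MT-CO1 passed when dates were blocked (blocked adjusted p = 0.000874), with upper-quartile scaling (edgeR adjusted p = 0.0488) and without the filter (0.0039). Its log2 fold change was -0.28 without wild-type replicate 1 and -0.37 without knockout replicate 2. Each fit without 1 library takes its spread from the remaining pair of the other group and assumes that the lone library varies like that pair, so such p-values are weak evidence. MT-CO2, the remaining core subunit of mitochondrial origin, overlapped between the groups (-0.03 ± 0.10).

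**Figure D2:**
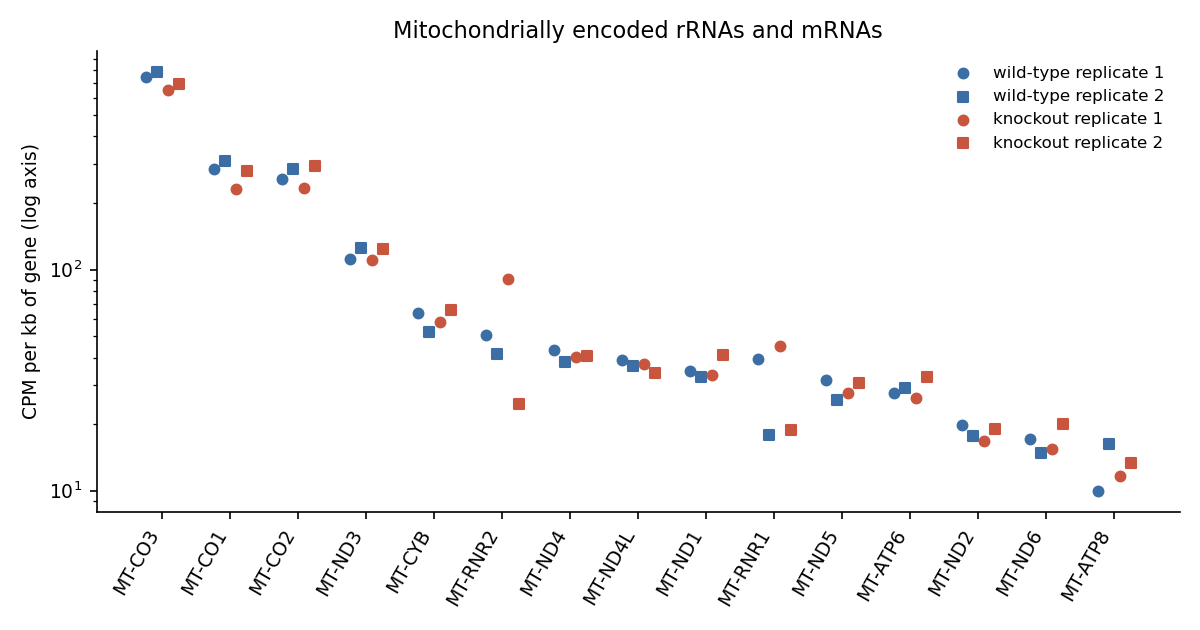
CPM per kilobase of gene for the 15 mitochondrially encoded rRNAs and mRNAs in each library, on a log axis, in order of mean level. Circles are replicate 1 and squares replicate 2, blue wild-type and red knockout. Both knockout points of MT-CO3 and MT-CO1 lie below both wild-type points, the points of MT-RNR1 are spread widely within both groups, and those of MT-RNR2 within the knockout.

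MT-RNR2, the large rRNA that FASTKD2 binds, varied widely between the knockout libraries. The wild-type libraries gave 1635 and 1605 counts against 2988 and 764 in the knockout, so the knockout libraries held both the highest and the lowest value. The log2 fold change was 0.33 ± 0.86 (interval -3.03 to 3.69, adjusted p = 0.929). Its direction rested on 1 library: without knockout replicate 1 it was -0.90, and without knockout replicate 2 it was 0.98. With 1 knockout library left the spread comes from the wild-type pair alone, so no p is given for these values. MT-RNR1, the small rRNA, gave 780 and 420 counts in wild-type against 911 and 357 in knockout (0.18 ± 0.79). In both groups the library of the first date was the higher one. Per kilobase both rRNAs lay below MT-CO3 in every library, at 17.8 to 90.6 CPM. Whether rRNA was removed before sequencing is not given in the sources used here, and its part in these values was not tested.

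The log2 ratio of MT-RNR2 to MT-RNR1 needs no scaling between libraries. Its values were 1.07 and 1.93 in wild-type against 1.71 and 1.10 in knockout. The groups overlapped, with a difference of -0.10 and an exact permutation p of 1 (two-sided, smallest possible 0.333). Within the first date the ratio was 0.65 higher in knockout and within the second it fell by 0.84. A change of the large rRNA was therefore not detectable with these libraries.

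MT-ND6, the single mRNA made from the other strand and bound by FASTK and FASTKD2, gave 187 and 192 counts in wild-type against 171 and 210 in knockout. The groups overlapped (0.15 ± 0.16, interval -0.16 to 0.47, adjusted p = 0.721). MT-ND3, on which FASTKD1 acts, stood at 111 and 125 CPM per kb in wild-type against 111 and 124 in knockout (-0.01 ± 0.09). MT-CYB, whose mRNA end is among those that FASTKD5 processes, gave 0.09 ± 0.08. Among the other subunit mRNAs of complex I, MT-ND1 gave 0.14 ± 0.10, MT-ND2 -0.06 ± 0.11, MT-ND4 -0.01 ± 0.08, MT-ND4L -0.08 ± 0.14 and MT-ND5 0.03 ± 0.09. The ATP synthase mRNAs gave 0.05 ± 0.12 for MT-ATP6 and -0.09 ± 0.26 for MT-ATP8, which rested on 43 to 83 counts per library. The reading frames of these 2 overlap, as do those of MT-ND4L and MT-ND4, and the nuclear genome holds copies of mitochondrial genes (83 to 106 counts per library over 189 named copies), so reads may be shared.

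Of the 22 mitochondrial tRNAs 6 passed the filter, with 0 called by edgeR or DESeq2, beside 6.56% and 3.61% of all genes. The cysteine tRNA MT-TC came nearest, at 74.0 and 81.6 CPM in wild-type and 83.0 and 97.3 CPM in knockout (0.21 ± 0.08, adjusted p = 0.101). MT-TC missed it by DESeq2 too (adjusted p = 0.411). It passed the threshold when dates were blocked (blocked adjusted p = 0.0187), in a fit that called 9.55% of all genes. Its log2 fold change without knockout replicate 1 was 0.32. MT-TP gave 0.10 ± 0.07. These libraries were not made for tRNAs, and reads at a tRNA gene may come from a precursor.

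**Figure D3:**
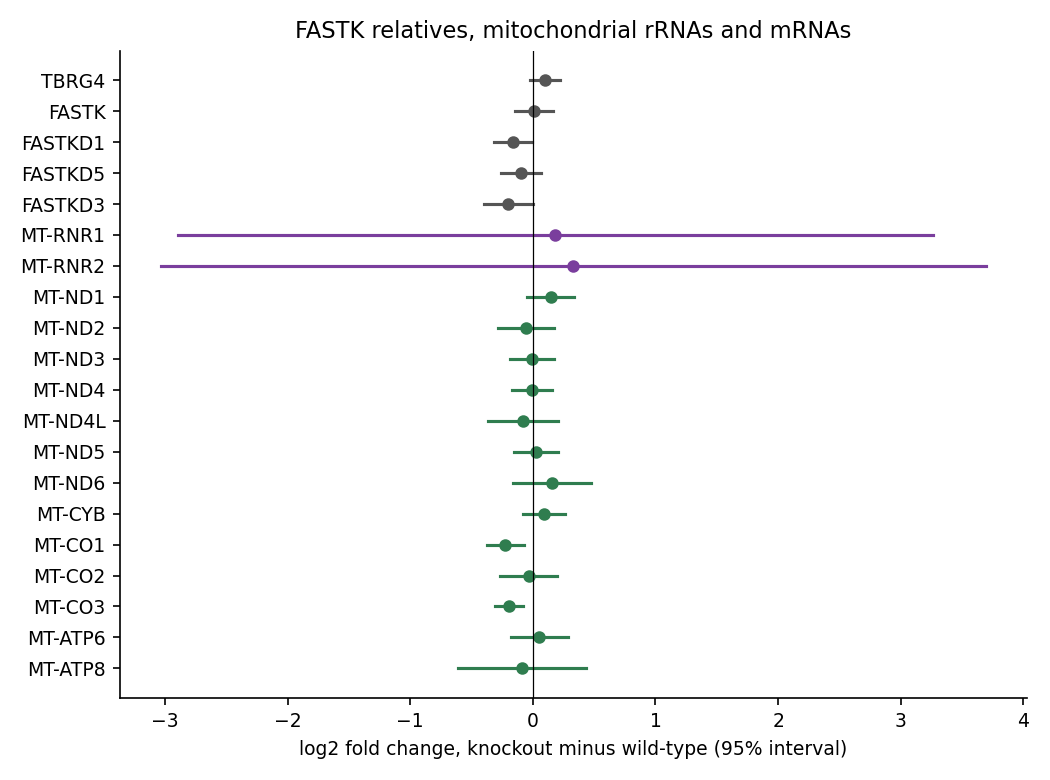
Log2 fold change, knockout minus wild-type, with its 95% interval before adjustment, for the 5 relatives of FASTKD2 (grey), the rRNAs (purple) and the mRNAs (green) of the mitochondrial genome. The interval of MT-RNR2 runs from -3.03 to 3.69, and those of MT-CO3, MT-CO1, FASTKD1 and FASTKD3 lie below 0.

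FASTKD2 works with a group of proteins that pseudouridylate and stabilise the large rRNA: the pseudouridine synthases RPUSD3, RPUSD4 and TRUB2, with NGRN and WBSCR16 (now RCC1L). All 5 were tested and 0 were called by edgeR or DESeq2, beside 6.56% and 3.61% of all genes. Of the 5, NGRN alone had an unadjusted p under 0.05, as had 2711 of all 16233 genes tested. NGRN stood at 67.9 and 64.3 CPM in wild-type and 72.3 and 76.0 CPM in knockout (0.17 ± 0.08, adjusted p = 0.236). RPUSD4 gave -0.16 ± 0.08 (adjusted p = 0.319), and the other 3 lay between -0.06 and 0.07.

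Few nuclear genes of mitochondrial RNA and respiration were called: of 286 tested, 3 rose and 2 fell (1.75%, beside 6.56% of all genes), and the median was -0.01. The difference between these shares was not tested. Blocking on dates gave 8 up and 11 down (6.64%, beside 9.55% of all genes in that fit), and DESeq2 gave 1 in each direction (0.699%, beside 3.61%). Leaving out knockout replicate 1 raised the number called both in these lists and over all genes. Leaving out any other library lowered both.

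Among 39 genes for mitochondrial RNA processing and decay 1 was called, as higher (2.56%, beside 6.56% of all genes). This was ENDOG, a mitochondrial endonuclease, at 10.2 and 11.4 CPM in wild-type and 15.3 and 15.3 CPM in knockout (0.50 ± 0.13, adjusted p = 0.0101). The call was lost with DESeq2 (adjusted p = 0.0968) and without wild-type replicate 1 (0.177) or knockout replicate 2 (0.0532). When dates were blocked, 1 member of that list was higher and 2 were lower, in a fit that called 9.55% of all genes. Those lower were TRMT10C, a subunit of mitochondrial RNase P (blocked adjusted p = 0.0413), and PNPT1, the polynucleotide phosphorylase of mitochondrial RNA decay (0.0129). Both were named after their values were seen, and DESeq2 did not call them (adjusted p = 0.337 and 0.141). Of 20 genes for mitochondrial transcription and the nucleoid 0 were called, beside the same 6.56% of all genes. The transcription factor gene TFB2M came nearest (-0.26 ± 0.09, adjusted p = 0.0793, blocked adjusted p = 0.0325, by library size alone 0.0493, DESeq2 adjusted p = 0.305). MTERF1 gave -0.23 ± 0.11.

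The mitochondrial ribosome, which FASTKD2 helps to assemble, had 0 calls among the 49 large-subunit genes, the 32 small-subunit genes and the 22 genes for assembly and translation that were tested. Over all genes 6.56% were called. Unadjusted p-values under 0.05 numbered 6, 4 and 2, beside 2711 of all 16233 genes tested. DESeq2 called 0 in each list, beside 3.61% of all genes. When dates were blocked, 9.55% of all genes were called in either direction. In these lists 4 genes fell in that fit: MRPL1 (blocked adjusted p = 0.0219), MRPL13 (0.0395), MRPS31 (0.0310) and MRPS35 (0.0421), the last named after its value was seen. Their unblocked log2 fold changes were -0.26 ± 0.09, -0.20 ± 0.08, -0.25 ± 0.09 and -0.18 ± 0.08. The medians of the 3 lists were -0.03, -0.03 and -0.0029. The ribosomal protein gene MRPS9 (-0.17 ± 0.07), the recycling factor gene MRRF (-0.17 ± 0.08) and the assembly factor gene MPV17L2 (0.25 ± 0.10) missed the threshold. MPV17L2 was called higher when knockout replicate 1 was left out (adjusted p = 0.0317), and MRPL1 was called lower with upper-quartile scaling (0.0426) or scaling by library size alone (0.0354).

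Among nuclear subunit genes of the respiratory chain 0 rose and 1 fell of 4 for complex II, 1 and 0 of 9 for complex III, and 1 and 0 of 16 for ATP synthase. The share over all genes was 6.56%, and in lists this short 1 call is little to read from. ATP5I (now ATP5ME), a membrane subunit of ATP synthase, rose from 65.6 and 67.3 to 84.9 and 90.6 CPM (0.40 ± 0.07, adjusted p = 9.3e-05), and kept its call with DESeq2 and without any 1 library. CYC1, cytochrome c1 of complex III, rose by 0.21 ± 0.06 (adjusted p = 0.0201), a call lost with DESeq2 (0.0823), with scaling by library size alone (0.0552) and without wild-type replicate 1 (0.387), wild-type replicate 2 (0.123) or knockout replicate 2 (0.247). SDHC, a membrane anchor of complex II, fell by 0.28 ± 0.08 on the log2 scale (adjusted p = 0.0110), lost with DESeq2 (0.0533) and without wild-type replicate 2 (0.212) or knockout replicate 2 (0.247). SDHC (start 161314381) and TFB2M (start 246540561) both lie on chromosome 1. Of 610 tested genes beyond 125 Mb of that chromosome 8 were higher (1.31%, beside 3.06% of all genes) and 56 lower (9.18%, beside 3.50%), with a median of -0.09. The mitoribosome genes there, MRPL9 (-0.10), MRPS21 (-0.09), DAP3 (-0.07), MRPL55 (-0.02), MRPL24 (-0.0056) and MRPS14 (-0.0039), were not called. Nor were the complex IV assembly genes COX20 (-0.54) and COA6 (-0.14) there. The part of this stretch in the values of SDHC and TFB2M was not tested.

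Complex IV is the enzyme that is low when FASTKD2 is lost in patients. Of its 11 nuclear subunit genes and 23 assembly genes 0 were called by edgeR or DESeq2, beside 6.56% and 3.61% of all genes. Unadjusted p-values under 0.05 numbered 5 and 0, beside 2711 of all 16233 genes tested. COX8A stood at 205 and 213 CPM in wild-type and 235 and 238 CPM in knockout (0.18 ± 0.06, adjusted p = 0.0649, blocked adjusted p = 0.0118). NDUFA4, now counted as a complex IV subunit, gave 0.18 ± 0.06 (adjusted p = 0.0833, blocked adjusted p = 0.0211, without knockout replicate 1 adjusted p = 0.0278). The assembly genes COA3 and COX17 gave 0.16 ± 0.08 and -0.19 ± 0.10. Of 19 tested genes of the mitochondrial stress response 0 were called by edgeR or DESeq2 and 1 at an unadjusted p under 0.05. OMA1 (-0.24 ± 0.11) and SHMT2 (0.12 ± 0.06) ranked first, and PSAT1, named after its value was seen, fell when dates were blocked (blocked adjusted p = 0.0305). The RNA-binding partners of FASTK and Fas pathway genes had 0 calls among 5 tested, with 0 at an unadjusted p under 0.05 and 0 by DESeq2. CASP8 gave -0.17 ± 0.10 and TIAL1 -0.12 ± 0.08.

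**Figure D4:**
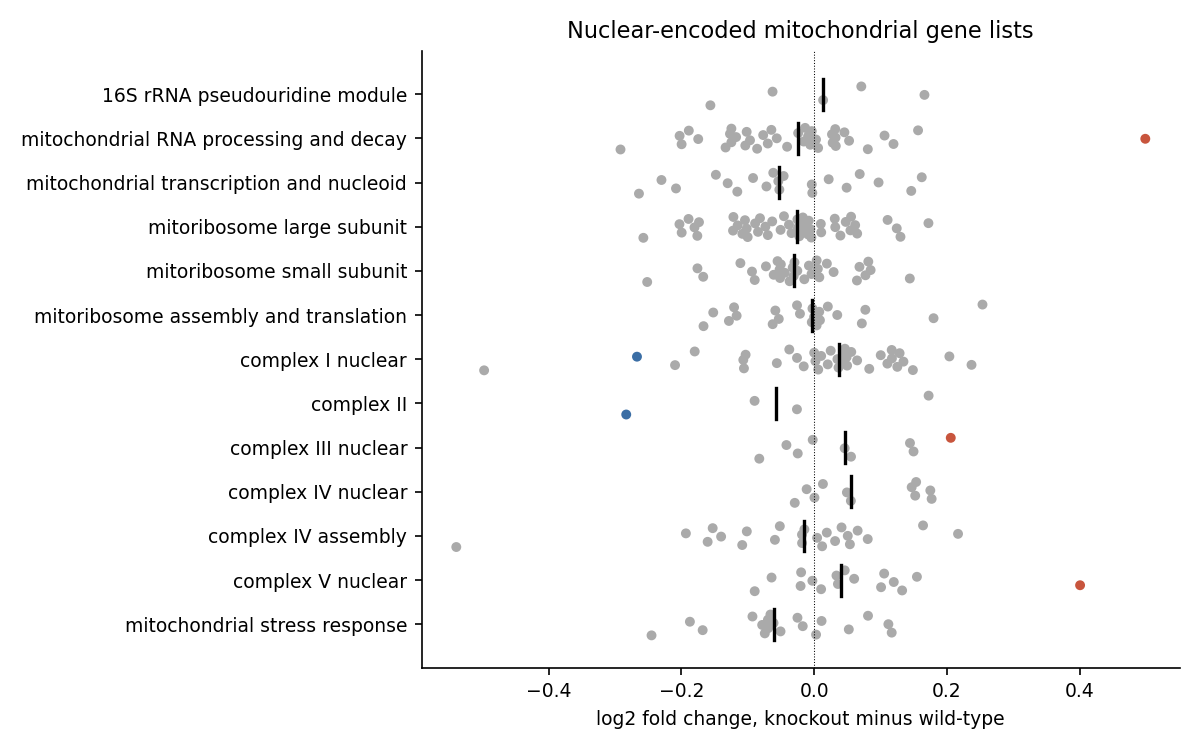
Log2 fold change, knockout minus wild-type, of each tested gene in 13 lists of nuclear-encoded mitochondrial genes. Grey points were not called, red were called higher and blue lower, and black bars are list medians. All medians lie close to 0. ENDOG (0.50) and ATP5I (0.40) lie farthest to the right, and COX20 (-0.54, not called) farthest to the left.

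The genes around each member were read to see how far the FASTKD2 difference extended along the chromosome. Of the 10 tested genes with a RefSeq position nearest to FASTKD2, 0 were called by edgeR, DESeq2 or the block. These fits called 6.56%, 3.61% and 9.55% of all genes, so 0 of 10 is little to read from. Of the 10, 1, FZD5, had an unadjusted p under 0.05, as had 2711 of all 16233 genes tested. ADAM23, an adhesion gene 144 kb to the left, stood at 21.1 and 23.6 CPM in wild-type and 27.1 and 24.4 CPM in knockout (0.20 ± 0.10, adjusted p = 0.326). KLF7, a transcription factor gene 278 kb to the right, stood at 26.0 and 31.3 CPM in wild-type and 27.9 and 28.7 CPM in knockout (-0.02 ± 0.10). All 10, out to 966 kb, lay between -0.24 and 0.20. Genes closer to FASTKD2 were hardly counted: MDH1B had 1 and 2 counts in wild-type against 0 and 0 in knockout, and CPO had 0 in all 4. At this depth a difference in MDH1B was not detectable.

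The genes on both sides of FASTK rose. TMUB1, a membrane ubiquitin-like gene 0.275 kb to its right, rose from 44.1 and 44.1 to 61.4 and 64.3 CPM (0.51 ± 0.08, adjusted p = 4.66e-06). SLC4A2, an anion exchanger gene 0.096 kb to its left, rose from 153 and 153 to 180 and 200 CPM (0.31 ± 0.06, adjusted p = 0.000486). Both calls held under DESeq2, under the block and without any 1 library, while FASTK between them was at 0.01 ± 0.08. Differences between these adjacent genes were not tested against each other.

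Over all 60 neighbours 3 rose and 2 fell (8.33%, against 6.56% of all genes). The others called were B3GALT1, 1654 kb from FASTKD1 (-1.98 ± 0.36, adjusted p = 6.98e-05), ADCY1, 462 kb from TBRG4 (-0.67 ± 0.19, adjusted p = 0.0145), and TNS3, 2163 kb from it (0.22 ± 0.06, adjusted p = 0.0258). B3GALT1 and TNS3 were named after their values were seen. DESeq2 did not call ADCY1 (adjusted p = 0.166) or TNS3 (0.127). The ADCY1 call was also lost without wild-type replicate 2 (0.480) or knockout replicate 2 (0.129). More neighbours were called without knockout replicate 1 and fewer without any other library, and the same held over all genes. The tested genes nearest to FASTKD1 (PPIG, -0.09 ± 0.07, and BBS5, -0.20 ± 0.20) and FASTKD5 (UBOX5, 0.04 ± 0.15, and LZTS3, 0.04 ± 0.17) were not called. Nor was PAPD7 (-0.09 ± 0.08), the nearest tested gene to the left of FASTKD3, though 1102 kb away.

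**Figure D5:**
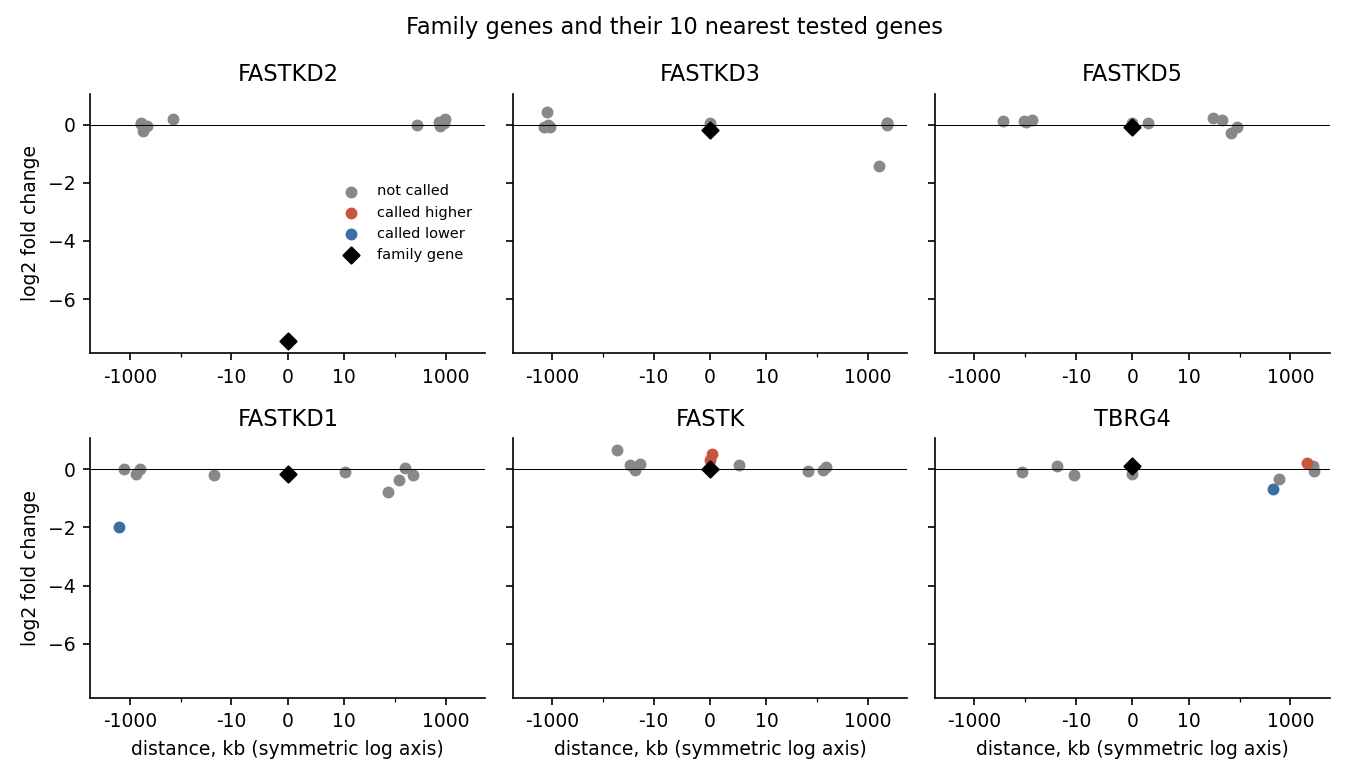
Log2 fold change, knockout minus wild-type, of each family gene (black diamond) and its 10 nearest tested genes against their distance in kb, on a symmetric log axis. Red points were called higher, blue lower and grey neither. FASTKD2 lies at -7.45 with its neighbours between -0.24 and 0.20, and FASTK lies near 0 between TMUB1 (0.51) and SLC4A2 (0.31).

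The genes whose pattern over the 4 libraries was most like that of FASTKD2 were ranked by Euclidean distance of centred log2 CPM among 13957 genes with a mean of at least 1 CPM. MGMT, a DNA repair gene, was nearest (distance 0.299), followed by the glycosyltransferase gene GALNT5 (0.699), the collagen gene COL11A1 (0.776) and SETBP1 (0.887). PTPRN2 (1.12), the sarcomere gene MYOM1 (1.16), the thiamine transporter gene SLC19A3 (1.46) and the enamel gene AMBN (1.46) came next. As they were picked by this pattern, these genes were counted in both wild-type libraries and nearly lost in both knockout libraries. MYOM1 had 732 and 1077 counts against 13 and 21, and GALNT5 249 and 345 against 0 and 4. GALNT5 (start 157257705) and SLC19A3 (start 227683763) share chromosome 2 with FASTKD2 and lie far from it. With 4 libraries in 2 groups the measure mostly reflects the size of the difference between the groups.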

How the data were processed

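Per the deposited files, the values were raw read counts, 1 file per library, per gene symbol or per mature microRNA name. Of tools, the submitters' processing notes list STAR, featureCounts, Subread, cutadapt, SAMtools and FastQC, with hg38 as build and without roles. For versions, annotation and strand setting: not given in the sources used here. Members, lists, neighbours' rule and tests were chosen with earlier results of these data known.

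The 2 wild-type and 2 knockout RNA-seq libraries were fitted in R 4.3.3 with edgeR 4.0.16: filterByExpr (minimum count 10), TMM, robust quasi-likelihood F test, Benjamini-Hochberg adjustment over all 16233 genes, threshold 0.05. This was tested on simulated data, drawn with the fitted means and dispersions, which hold no clone or date effects. Unnamed adjusted p-values are from this fit. CPM use TMM-scaled library sizes. SE is the log2 fold change over the square root of F. Alternatives were DESeq2 1.42.0, other scalings, no filter, the date as a block and leaving out each library. The date in the labels pairs the libraries; deviations of same-date libraries correlated at 0.08 over genes. RefSeq positions were matched for 87.5% of tested genes.

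Named genes were BCDIN3D, the members, all mitochondrial rRNAs and mRNAs, up to 2 called genes each way per list (or the 2 of smallest p), the nearest tested gene on each side of a member, and the 8 most like FASTKD2. Small RNA counts were used for miR-3130 only, without a fit. The result for 1 gene among the nuclear subunits is not reported here.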

Additional observations from a re-analysis of the deposited data

How the results depend on the processing

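The 5 relatives of FASTKD2 stayed at 0 calls under all 10 alternatives. In the whole table DESeq2 called 255 higher and 331 lower, the block on the date 767 up and 784 down, library-size scaling 374 up and 644 down, and leaving out 1 library gave 240 to 684 higher and 340 to 705 lower, against 497 and 568. Of the mitochondrial rRNAs and mRNAs, 2 were lower with upper-quartile scaling, without the filter and with the block, and 0 with DESeq2. With 1 library left out no count is given for them, since the spread then comes from 1 pair alone. In the nuclear-encoded mitochondrial lists DESeq2 called 1 higher and 1 lower, the block 8 and 11, scaling by library size alone 5 lower and upper-quartile scaling 4 lower. Leaving out 1 library gave 1 to 9 higher and 0 to 8 lower. Among neighbours DESeq2 called 1 lower, and leaving out 1 library gave 2 to 5 higher and 1 to 3 lower. The MT-RNR2 to MT-RNR1 ratio differed by 0.65 within date 1 and by -0.84 within date 2, with the replicate block, and by -0.53 to 0.34 with 1 library left out. MT-RNR2 reversed to -0.90 without knockout replicate 1 and was 0.98 without knockout replicate 2. The causes were not tested. The block changed calls in neighbours for SSB alone (blocked adjusted p = 0.00842, named after its value was seen). FASTKD2 with 4 counts and miR-3130 with 3 in knockout are limited by counting. The miR-3130 ratio without 1 library, an alternative chosen after seeing the data, was 1.88 to 7.12, and could not be formed without knockout replicate 1.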
